A study of Caenorhabditis elegans with 4 samples.

Results

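The 8 genes described here encode the origin recognition complex (orc-1, orc-2, orc-3, orc-4 and orc-5) and the factors that act with it in licensing DNA replication (cdc-6, cdt-1 and gmn-1). They were chosen by function and found through their WormBase symbols among the 20392 genes of the count table. All 8 were found, and all 8 were among the 14029 genes that passed the filter on low counts. RIP-seq sequences the RNA recovered with a protein (IP) beside the RNA of the lysate it was recovered from (Input), and here the protein was CeLIN41, the C. elegans TRIM-NHL RNA-binding protein. The series holds 4 libraries from whole young adult worms, an IP and an Input from each of 2 replicates grown in different weeks. All 4 libraries share 1 genotype. The worms carried the lin-41(rrr3) mutation on chromosome I and, on chromosome II, rrrSi367, a single-copy transgene in which the lin-41 promoter drives LIN-41 with FLAG, GFP and TEV tags, followed by the lin-41 3′UTR and marked by unc-119(+). The protein was recovered with beads that bind the FLAG tag, although the antibody label names LIN-41. A mock IP was not analysed here, so RNA held by the beads or the tags cannot be told apart from RNA held by CeLIN41.

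Before S phase, the origin recognition complex binds chromatin at sites where replication may start. CDC-6 and CDT-1 join it there and load the MCM helicase as an inactive ring, which is called licensing. Geminin, the product of gmn-1, binds CDT-1 and blocks further loading, and in C. elegans the CUL-4 ubiquitin ligase removes CDT-1 during S phase. The early embryo runs rapid S phases on proteins and mRNAs supplied by the oocyte. LIN-41 itself acts in oocytes, among other tissues.

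In the annotation used for names and positions (Ensembl, WBcel235), orc-1 (WBGene00012650) and orc-4 (WBGene00012651) are neighbours on the plus strand of chromosome III, with orc-4 starting 111 bases after the end of orc-1. The gene orc-3 (WBGene00022488) is also on the plus strand of chromosome III, and gmn-1 (WBGene00013552) is on its minus strand. The gene orc-2 (WBGene00003882) is on the plus strand of chromosome II, and orc-5 (WBGene00013857) is on the minus strand of chromosome IV. Both cdc-6 (WBGene00000382) and cdt-1 (WBGene00000413) are on the minus strand of chromosome I. Their longest annotated 3′UTRs are 99 bases for orc-1, 369 for orc-2, 51 for orc-3, 48 for orc-4, 71 for orc-5, 197 for cdc-6, 459 for cdt-1 and 737 for gmn-1, and the median over 13139 tested coding genes is 147. As annotated in WBcel235, the 3′UTR of orc-1 is thus shorter than that of most coding genes, and 3 of the other 4 subunits have shorter ones still. The gene model lengths in the count table are 3303 bases for orc-1 and 545 for gmn-1, against 2015 and 1280 bases of merged exons in WBcel235. For the other 6 genes the table's length is 0.971 to 1.11 times the WBcel235 exons.

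The libraries held 39432325 and 40743247 counts in IP replicates 1 and 2, and 33455857 and 38891261 counts in Input replicates 1 and 2. A few genes took a large part of the IP counts, and TMM scaling (edgeR's trimmed mean of M values) gave factors of 0.779 and 0.672 for the IPs and 1.43 and 1.34 for the Inputs. The choice of scaling shifts every gene. With TMM factors the median log2 fold change, IP over Input, of the genes tested was -0.14, and without them, on library size only, it was -1.07, and folds are to be read against these medians. With TMM factors edgeR called 32.9% of the genes tested enriched and 35.4% depleted. Summed levels of 4 oocyte markers (oma-1, oma-2, rme-2 and puf-5) were 3708 and 3187 CPM (counts scaled to library size) in the IPs, against 2339 and 2490 CPM in the Inputs, and edgeR called 4 of 4 enriched. Most of that difference lies in oma-2, with 1838 and 1621 CPM against 629 and 669.6 CPM, and puf-5 was lower in both IPs in CPM, with 798 and 638 against 827 and 885, although called enriched with TMM factors. For 4 markers of muscle the sums were 562 and 423 CPM against 1820 and 1499 CPM, and for 4 of intestine 639 and 442 CPM against 2355 and 1687 CPM, with 3 of 4 and 4 of 4 called depleted. The other muscle marker, unc-54, was called enriched at an edgeR log2 fold change of 0.32 with TMM factors. Its mean log2 difference, IP less Input, was -0.62 with library size only, against a median of -0.91 on that measure. Sums for 4 germline markers were 1646 and 1500 CPM against 1621 and 1705 CPM, and those for 4 sperm markers were 2.92 and 2.01 CPM against 12.7 and 9.49 CPM. Among the germline markers, gld-1 (log2 fold change 1.19) and pgl-1 (0.58) were called enriched, glh-1 (-1.15) was called depleted and htp-3 was not called. Of 3 sperm markers tested, 2 were called depleted. For 4 markers of hypodermis the sums were 613 and 520.3 CPM against 988 and 783 CPM, and for 4 of neurons 146 and 110.2 CPM against 245 and 240.1 CPM. Most of the hypodermis sums was col-19 (954 and 749 CPM in the Inputs) and most of the neuron sums snb-1 (233 and 229 CPM), neither of them called. In hypodermis nhr-23 was called enriched (1.28) and dpy-7 and rol-6 were not called, while the other 3 neuron markers were called depleted. No marker of these lists was at 0 in any library, and the part of such differences between tissues in the values below was not tested.

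In the Input, all 8 mRNAs were detected, and by the table's gene lengths orc-1 and orc-5 were at like levels. Levels are compared between genes as TPM, which are counts divided by the length of the gene model in the table and scaled to the same total in every library. In Input replicates 1 and 2, orc-1 was at 96.1 and 99.7 TPM and orc-5 at 97.6 and 97.3 TPM. These ranges overlap, so the levels of the pair do not differ beyond their spread. Next came orc-4 with 71.1 and 64.4 TPM and cdc-6 with 64.7 and 67.6 TPM, which also overlap. The level of orc-2 was 44.0 and 51.4 TPM, that of orc-3 was 40.3 and 38.9 TPM, and cdt-1 was lowest at 18.4 and 21.0 TPM. Geminin mRNA was highest, with 154 and 158 TPM, but its place rests on its length. With WBcel235 exon lengths, mean Input levels were 149 TPM for orc-1 and 62.0 TPM for gmn-1, against 97.9 and 156 TPM with the table's lengths. The other 6 genes then lay between 17.8 TPM (cdt-1) and 93.9 TPM (orc-5). These are whole worms, and fewer cells that express a gene cannot be told apart from less of its RNA per cell.

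**Figure D1:**
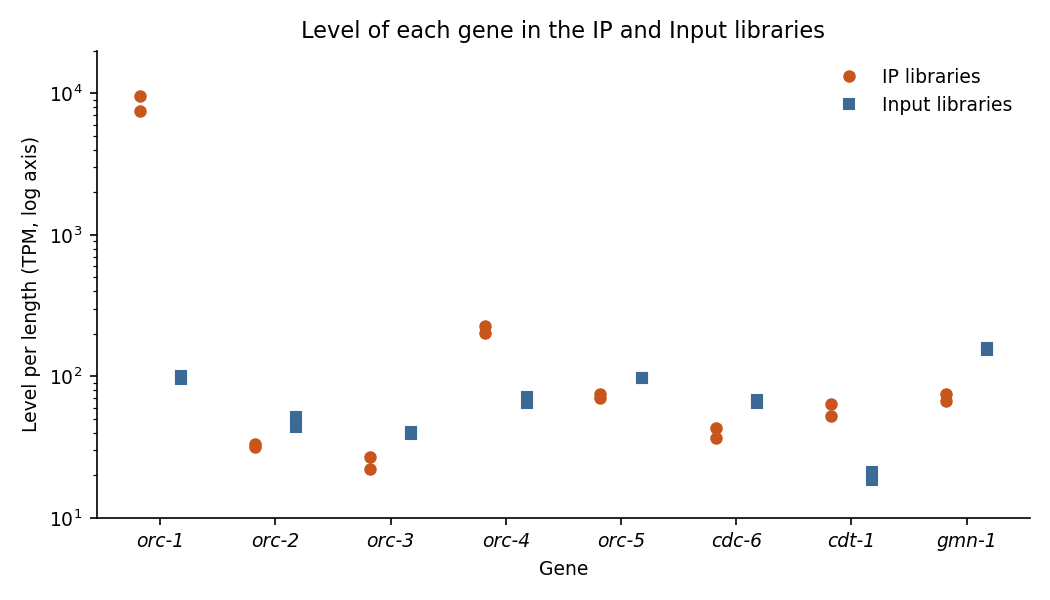
Level of each of the 8 genes in TPM on a log axis, with 1 point per library (circles, IP; squares, Input). The 2 IP points of orc-1 sit at 7454 and 9606 TPM, far above its Input points at 96.1 and 99.7. Those of orc-4 and cdt-1 also lie above their Input points, while for the other 5 genes both IP points lie below. TPM are scaled to the same total in every library, and with TMM factors only gmn-1 of these 5 was called depleted.

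The subunit orc-1, an ATPase of the origin recognition complex, was among the most strongly enriched mRNAs of the experiment. It had 748001 and 979868 counts in IP replicates 1 and 2, against 10173 and 12195 counts in Input replicates 1 and 2. Per length this came to 7454 and 9606 TPM in the IPs, against 96.1 and 99.7 TPM in the Inputs. Both IPs were far above both Inputs, and IP replicate 2 was the higher of the IPs. Per count sequenced, orc-1 was 62.4-fold more abundant in the IP than in the Input of replicate 1 and 76.7-fold in replicate 2. The edgeR log2 fold change was 7.05, a 132-fold enrichment with TMM factors, with an SE of 0.36 and an adjusted p of 2.12e-82. Only 4 of the 14029 genes tested had a larger one, namely mab-10, F21D9.8, F13A2.3 and T05F1.4, and both F21D9.8 and F13A2.3 had 0 counts in the Inputs. The edgeR p rests on a spread shared across genes with 1 residual degree of freedom, and over the 10 alternative fits the adjusted p of orc-1 was at most 2.87e-05, without Input replicate 1.

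On the study's own measure the value was smaller. IP enrichment is the difference of log2 values, IP less Input of the same replicate, after scaling to the mean library size, adding 8 and quantile normalization. For orc-1 it was 4.94 in replicate 1 and 4.92 in replicate 2, a mean of 4.93 ± 0.010 (SD, n = 2), which ranks 32 among the genes tested. By counts orc-1 ranked 2 in both IPs, below spn-4, so quantile normalization gave it the same log2 value of 18.43 in both, against 13.49 and 13.51 in the Inputs. The SD of 0.010 thus does not show the spread between the IPs. With library size only the values were 5.96 in replicate 1 and 6.26 in replicate 2, a mean of 6.11. With TMM factors the mean was 7.04.

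Such counts made orc-1 a visible part of the IP libraries. Its share of all counts was 1.90% in IP replicate 1 (Wilson 95% interval, 1.89 to 1.90) and 2.40% in IP replicate 2 (2.40 to 2.41), against 0.0304% (0.0298 to 0.0310) and 0.0314% (0.0308 to 0.0319) in the Inputs. The intervals cover counting error only, and the IPs differ from each other by more than that. In rank by count, orc-1 was at 2 in each IP and at 550 and 544 in the Inputs. Among counts of the 5 ORC subunits it made up 98.2% and 98.5% in the IPs, against 46.0% and 46.8% in the Inputs. The mRNA of the bait itself, lin-41, had 12953 and 8588 counts in the IPs and 677 and 543 in the Inputs, so even in the IPs it was far below orc-1 in counts.

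The subunits orc-2, orc-3 and orc-5 did not share this enrichment. The gene orc-2 had 1849 and 1797 counts in the IPs, against 2592 and 3500 in the Inputs. For orc-3 there were 1562 and 1315 counts in the IPs, against 2461 and 2746 in the Inputs. With orc-5 the counts were 2990 and 2850 in the IPs, against 4116 and 4741 in the Inputs. For each of the 3 genes both IPs were below both Inputs in counts, although the IP libraries were deeper. With TMM factors edgeR did not call any of the 3. Their log2 fold changes were 0.057 for orc-2 (95% interval, -0.14 to 0.25, adjusted p = 0.629), -0.077 for orc-3 (-0.28 to 0.12, adjusted p = 0.504) and 0.18 for orc-5 (-0.015 to 0.38, adjusted p = 0.097). Mean IP enrichment was -0.41 ± 0.080, -0.49 ± 0.017 and -0.43 ± 0.078 for orc-2, orc-3 and orc-5 (SD, n = 2 each), against a median of -0.11 over the genes tested. With library size only the enrichments were -0.87, -1.01 and -0.75, against a median of -0.91 over the genes tested. With TMM factors they were 0.057, -0.077 and 0.18, so the sign for orc-2 and orc-5 depends on the scaling.

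The subunit orc-4, like orc-5 of the same ATPase family as orc-1, was enriched but far less than orc-1. It had 7462 and 8539 counts in the IPs, against 2757 and 2886 in the Inputs, which is 203 and 229 TPM against 71.1 and 64.4 TPM. Both IPs lay above both Inputs, and per count sequenced orc-4 was 2.30-fold more abundant in the IP of replicate 1 and 2.82-fold in that of replicate 2. The edgeR log2 fold change was 2.28 (SE 0.11, adjusted p = 3.47e-85), which ranks 669 among the genes tested. Mean IP enrichment was 1.61 ± 0.30 (SD, n = 2), with 1.40 in replicate 1 and 1.82 in replicate 2, and it was 1.35 with library size only and 2.28 with TMM factors.

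The place of orc-4 just downstream of orc-1 bears on how its counts can be read. Its counts equalled 0.998% and 0.871% of those of orc-1 in the IPs, against 27.1% and 23.7% in the Inputs. The sources used here do not say how reads near gene ends, or reads shared by gene models, were counted. The next gene on that strand, emg-1, starts 657 bases after orc-4 and had 3952 and 4015 counts in the IPs, against 2342 and 2726 in the Inputs. Its edgeR log2 fold change was 1.44 (SE 0.10, adjusted p = 1.49e-42), so the 3 neighbouring genes were all called enriched, in falling order from orc-1. The part of the neighbouring transcript in the values of orc-4 was not tested. The table's gene model of orc-1 is also 1288 bases longer than its WBcel235 exons, and what those bases cover is not known from the files used here.

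A ratio of 2 genes within a library does not depend on how libraries are scaled, so orc-1 was set against each other gene in that way. For each count of orc-2 there were 405 and 545 counts of orc-1 in the IPs, against 3.92 and 3.48 in the Inputs. The IP ratio over the Input ratio was 103 in replicate 1 (exact conditional 95% interval, 96.8 to 110) and 156 in replicate 2 (147 to 166). Against orc-3 the counts of orc-1 were 479-fold and 745-fold in the IPs and 4.13-fold and 4.44-fold in the Inputs, which gave 116 (108 to 124) and 168 (157 to 180). Against orc-5 they were 250-fold and 344-fold in the IPs and 2.47-fold and 2.57-fold in the Inputs, which gave 101.2 (96.2 to 107) and 134 (127 to 141). Over these 3 subunits the gain of orc-1 was thus 101.2 to 168. Against orc-4, orc-1 was 100.2-fold and 114.8-fold in the IPs and 3.69-fold and 4.23-fold in the Inputs, and the gain was 27.2 in both replicates (25.9 to 28.5 and 25.9 to 28.4). The intervals cover counting error only, and those of orc-4 lie below those of the other 3 subunits in both replicates.

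**Figure D2:**
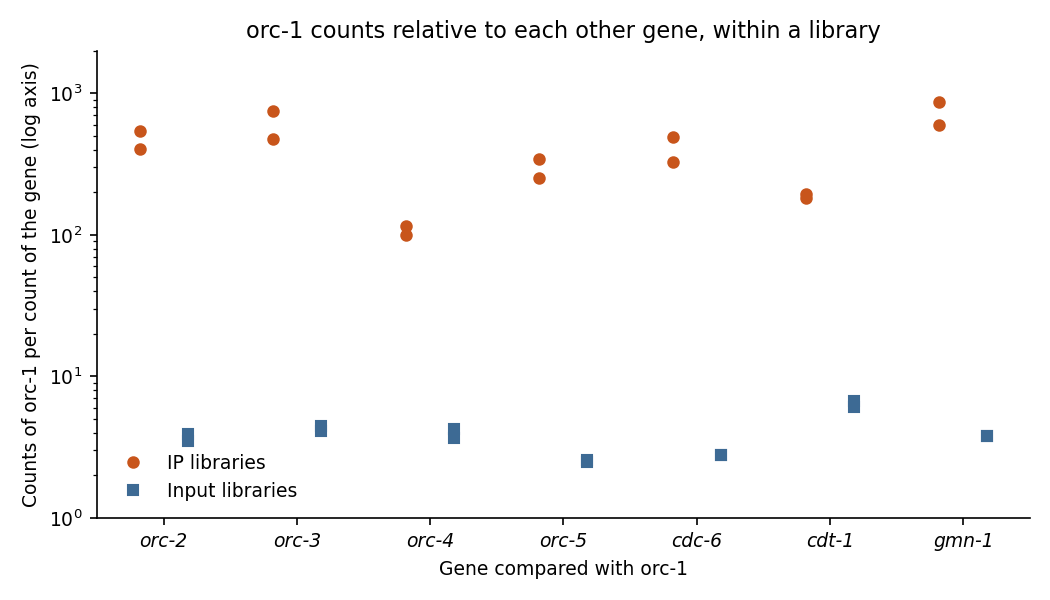
Counts of orc-1 per count of each other gene, within a library, on a log axis (circles, IP; squares, Input; 1 point per library). The Input ratios lie between 2.47 and 6.69 for all 7 genes, and the IP ratios between 100.2 and 864, with orc-4 and cdt-1 lowest.

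Between replicates the gain of orc-1 was larger in replicate 2 for 6 of the 7 genes, and for orc-4 it was the same. As log2 values, the mean gain was 6.99 ± 0.43 over orc-2, 7.12 ± 0.38 over orc-3, 6.86 ± 0.28 over orc-5 and 4.76 over orc-4 (SD, n = 2 each; the SD for orc-4 was below 0.01). For the licensing factors it was 7.17 ± 0.43 over cdc-6, 4.88 ± 0.16 over cdt-1 and 7.57 ± 0.36 over gmn-1. Each gain exceeded the spread between replicates many times over. An exact permutation test of the log2 ratio over the 4 libraries (two-sided, 7 comparisons) gave p = 0.333 for each gene, before and after Benjamini-Hochberg adjustment, which is the smallest p that 2 against 2 libraries can give. It left out the pairing by replicate, and at its floor it says nothing about the size of a gain. On the quantile-normalized scale the differences in IP enrichment were smaller, with 5.34 ± 0.070 over orc-2, 5.42 ± 0.027 over orc-3, 3.32 ± 0.31 over orc-4 and 5.36 ± 0.088 over orc-5. There orc-1 had the same value in both IPs, so these SDs leave out its own spread between the IPs.

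Of the licensing factors, cdt-1 was enriched, gmn-1 was depleted and cdc-6 was not called. The gene cdt-1, which encodes the MCM loading factor, had 4108 and 5074 counts in the IPs, against 1521 and 2004 in the Inputs. Both IPs were above both Inputs, and per count sequenced cdt-1 was 2.29-fold and 2.42-fold more abundant in the IPs. Its edgeR log2 fold change was 2.17 (SE 0.11, adjusted p = 1.72e-89), a 4.50-fold enrichment, and its mean IP enrichment was 1.64 ± 0.11 (SD, n = 2). Both values are close to those of orc-4. The gene next to cdt-1 in the downstream direction, rom-5, is 204 bases away and had 852 and 847 counts in the IPs, against 880 and 1020 in the Inputs. With TMM factors it was called enriched as well, at an edgeR log2 fold change of 0.62 (SE 0.11, adjusted p = 1.18e-07), although its counts were lower in both IPs than in both Inputs. The upstream coding neighbour of cdt-1 on its strand in WBcel235 is 16046 bases away. The part of neighbouring transcripts in the values of cdt-1 was not tested.

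For cdc-6, the ATPase that joins the complex at origins, there were 2296 and 1988 counts in the IPs, against 3638 and 4392 in the Inputs. The edgeR log2 fold change was -0.12 (95% interval -0.32 to 0.076, adjusted p = 0.28) and mean IP enrichment was -0.66 ± 0.045 (SD, n = 2), with -1.05 on library size only and -0.12 with TMM factors. Both IPs were below both Inputs in counts. With a filter of at least 10 counts in every library cdc-6 was called depleted. It was also called depleted with library size only, where 9333 of 14029 genes tested were.

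Geminin mRNA was the 1 member called depleted. It had 1242 and 1134 counts in the IPs, against 2694 and 3194 in the Inputs, so that both IPs were below both Inputs. Per count sequenced it stood at 0.391 of its Input share of counts in replicate 1 and 0.339 in replicate 2. The edgeR log2 fold change was -0.52 (SE 0.10, adjusted p = 6.8e-07), and mean IP enrichment was -0.93 ± 0.022 (SD, n = 2). The sign was negative under each of the 3 scalings, with -1.45 on library size only and -0.52 with TMM factors. In WBcel235 the gene overlaps gphr-1 on the opposite strand. The gene model that was counted is shorter, with 545 bases against 1280 bases of WBcel235 exons. Whether that model overlaps gphr-1 was not tested. For gphr-1 there were 3245 and 3144 counts in the IPs, against 1085 and 1320 in the Inputs, and an edgeR log2 fold change of 2.20. The libraries were stranded, but the sources used here do not say whether the counting used strand. If it did not, reads from any stretch shared by the 2 genes cannot be told apart.

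**Figure D3:**
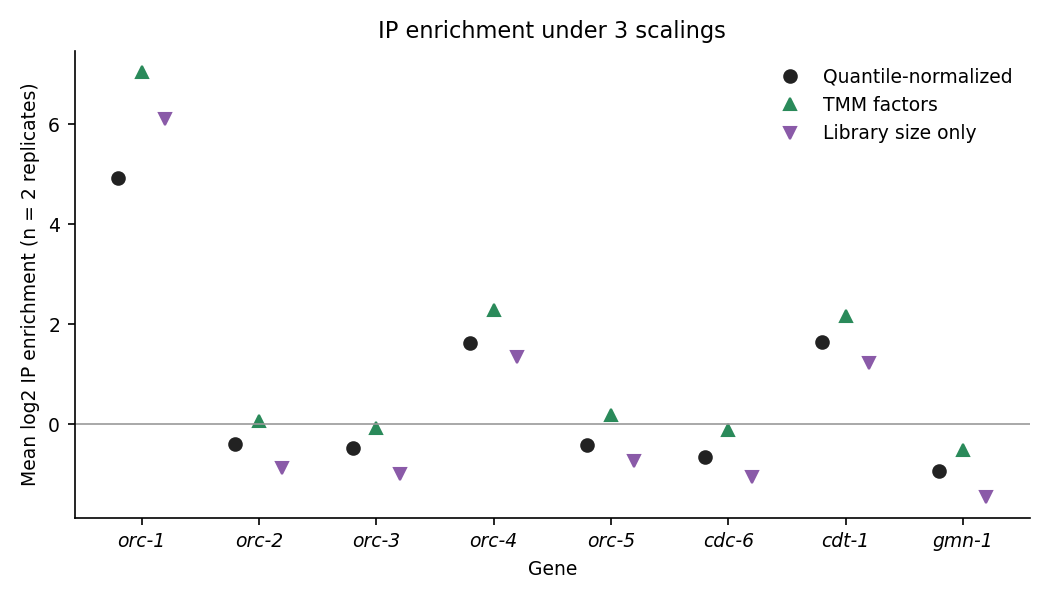
Mean log2 IP enrichment (n = 2 replicates) of the 8 genes under quantile normalization, TMM factors and library size only. The values of orc-1 are 4.93, 7.04 and 6.11, those of orc-4 and cdt-1 are positive and those of gmn-1 negative under all 3, and orc-2 and orc-5 change sign with TMM factors.

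Counted together, 3 of the 8 members were enriched (orc-1, orc-4 and cdt-1, 37.5%), 1 was depleted (gmn-1, 12.5%) and 4 were neither. Beside the 32.9% enriched and 35.4% depleted of all genes tested, the enriched share of the members is near the background and is no result about the genes as a group. The median log2 fold change was 0.12 over the members and -0.14 over the genes tested. The enriched members differed in size of change. A log2 fold change of at least 2 was reached by 890 genes (6.34% of those tested), of at least 4 by 152 genes (1.08%) and of at least 7 by 5 genes. The members orc-4 and cdt-1 are among the 890, and orc-1 is among the 5.

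**Figure D4:**
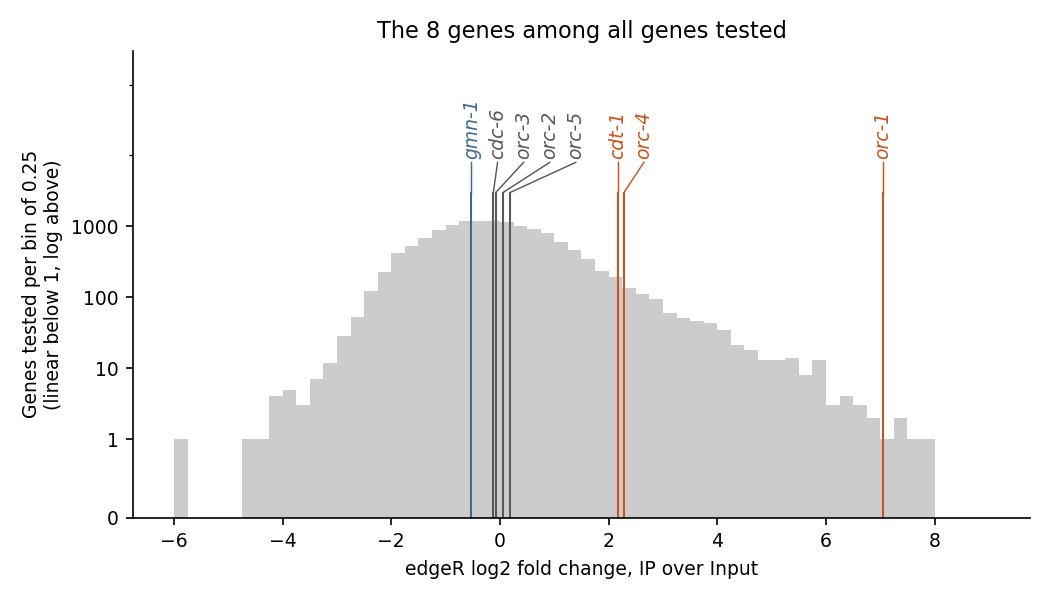
Number of genes tested per bin of edgeR log2 fold change, IP over Input, with the 8 genes marked (count axis linear below 1 and logarithmic above). The gene orc-1 lies at 7.05 in the far right tail, orc-4 and cdt-1 lie at 2.28 and 2.17, and the other 5 lie between -0.52 and 0.18 within the bulk of the genes.

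The genes whose 4 normalized log2 values were closest to those of orc-1 were F14H3.6, cah-4, neg-1, dab-1 and larp-5, at Euclidean distances of 1.09, 1.42, 1.45, 1.67 and 1.75 log2 units over the 4 libraries. The closest, F14H3.6, had 314921 and 381484 counts in the IPs, against 11542 and 15364 in the Inputs. Its mean IP enrichment was 3.95, and those of cah-4, neg-1, dab-1 and larp-5 were 4.60, 4.45, 3.60 and 3.86, all below the 4.93 of orc-1. No replication gene of the lists below was among the 5.

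The MCM subunits form the helicase loaded in licensing. Of the 6 genes mcm-2 to mcm-7, edgeR called 1 enriched and 4 depleted, with a median log2 fold change of -0.33, beside 32.9% enriched, 35.4% depleted and a median of -0.14 over all genes tested. The changes of the depleted subunits were small. The depleted subunits were mcm-2 (-0.43), mcm-4 (-0.44), mcm-5 (-0.38) and mcm-6 (-0.28), and mcm-3 (-0.15) was not called. The gene mcm-7 was called enriched at a log2 fold change of 0.98. Its IP enrichment was 0.10 ± 0.056 (SD, n = 2), against a median of -0.11 over the genes tested. With library size only it was 0.044, against a median of -0.91.

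Proteins of origin firing turn the loaded MCM ring into an active helicase by adding CDC-45 and the GINS complex. Of 14 genes listed, cdc-45, sld-3 and dbf-4 were not matched by symbol and are not analysed here. Of the other 11, 8 were enriched (72.7%) and 3 depleted (27.3%), with a median log2 fold change of 0.80, beside 32.9% and 35.4% of all genes tested. The gene sld-2, a CDK substrate needed to start replication, had 43809 and 61775 counts in the IPs, against 2723 and 3231 in the Inputs, a log2 fold change of 4.91 (SE 0.18). The GINS subunit psf-3 had 32176 and 41060 counts in the IPs, against 3661 and 4735 in the Inputs, a log2 fold change of 3.91 (SE 0.16). For both, each IP was far above each Input, and of the replication genes listed they came closest to orc-1. The other subunits of GINS differed from psf-3, with log2 fold changes of 1.07 for psf-1, 0.62 for psf-2 and -0.92 for sld-5. The gene mcm-10 followed at 1.73. Smaller log2 fold changes above 0 were those of cdc-7 (0.81), ctf-4 (0.80), psf-2 and cye-1 (0.51). Their IP enrichments with library size only were -0.12, -0.13, -0.31 and -0.43, all above the median of -0.91 over the genes tested. Besides sld-5, the depleted genes were cdk-2 (-1.05) and mus-101 (-0.35).

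The genes that remove CDT-1 gave 2 enriched (33.3%), 1 depleted (16.7%) and 3 uncalled of 6, with a median log2 fold change of 0.083. The enriched share is near the 32.9% of all genes tested, and the depleted share stands beside 35.4%. The substrate receptor cdt-2 had 16457 and 17091 counts in the IPs, against 3905 and 4543 in the Inputs, a log2 fold change of 2.77 (SE 0.13). It was above cdt-1 in fold change. The scaffold cul-4 was called enriched at 0.24. With library size only its IP enrichment was -0.69, against a median of -0.91 over the genes tested. A regulator of cullins, cand-1, was depleted at -1.04. The adaptor ddb-1 (0.096), the sliding clamp pcn-1 (-0.037) and rbx-1 (0.069) were not called.

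Replisome elongation genes, which encode polymerases, primase, the clamp loader, RPA and ligase, make up the last list. Of 15 listed, pold-1 and pold-2 were not matched by symbol and are not analysed here, and of the other 13, 3 were enriched (23.1%), 4 depleted (30.8%) and 6 neither, with a median log2 fold change of 0.051. Neither share exceeded that of all genes tested (32.9% and 35.4%). The enriched genes were rfc-3 (0.59), pri-2 (0.53) and div-1 (0.31). Their IP enrichments with library size only were -0.35, -0.41 and -0.62, all above the median of -0.91 over the genes tested. The depleted genes were rfc-2 (-1.14), pola-1 (-0.83), pole-1 (-0.61) and rpa-1 (-0.55).

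**Figure D5:**
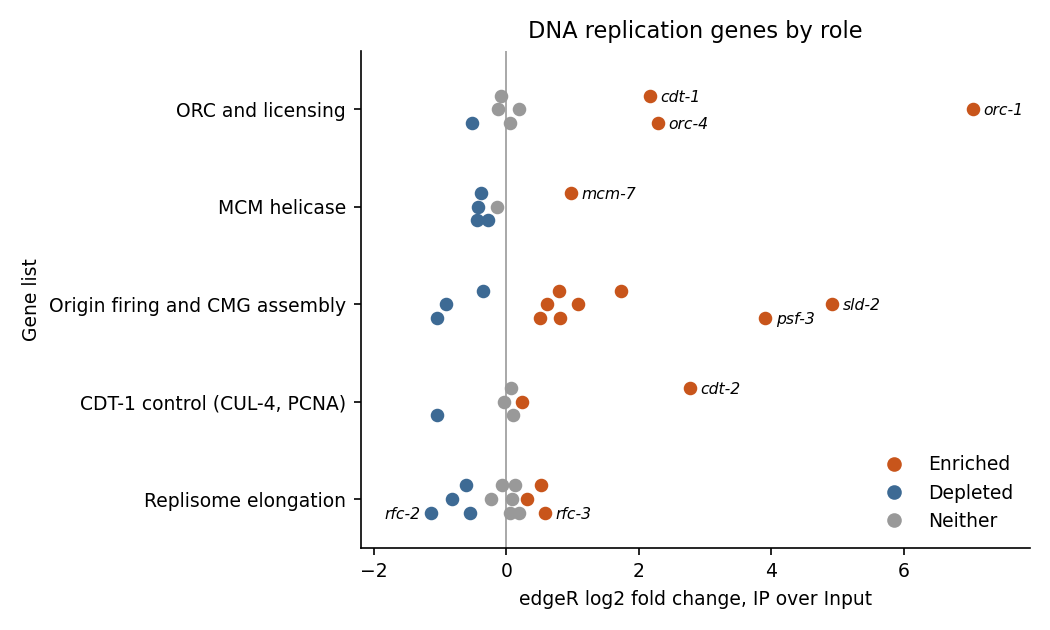
edgeR log2 fold change, IP over Input, of the matched genes of 5 replication lists, with 1 point per gene coloured by its call (enriched, depleted or neither; vertical offsets only separate points). The gene orc-1 at 7.05 stands alone, followed by sld-2 at 4.91, psf-3 at 3.91 and cdt-2 at 2.77, while the MCM and elongation genes lie between -1.14 and 0.98.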

How the data were processed

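For each gene the authors deposited an unnormalized read count per library, with the length of its gene model (WormBase WS220 on assembly ce10), and log2 values that they scaled to the mean library size, transformed after adding 8 and quantile-normalized. The sources used here do not name the aligner or the counting program. Applying those steps to the counts gave all 81568 deposited log2 values to within 1e-06. IP enrichment was IP less Input of the same replicate. Counts were tested with edgeR 4.0.16 (quasi-likelihood, TMM, filterByExpr, Benjamini-Hochberg over all genes tested at 0.05) with the replicate as a block, as replicates were grown in different weeks. Across genes, replicate differences in IP and Input correlated at r = 0.292. The SE is the absolute log2 fold change over the square root of F, and intervals are 1.96 SE. The fit was also run on simulated data in which few genes changed, unlike here, so that run cannot speak for the calls made here. Alternatives were DESeq2 1.42.0, no block, other scalings and filters, and each library left out. Named genes were the 8 members, called or extreme genes of the lists, and the 5 nearest orc-1. The members and lists were chosen with earlier results of these data known. Symbols were joined by WormBase identifier. No sequences or coordinates are given. Replicates are separate cultures, and counting intervals cover counting error only.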

Additional observations from a re-analysis of the deposited data

How the results depend on the processing

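Calls for orc-1, orc-4, cdt-1 and gmn-1 held in all 10 alternatives of the edgeR test, with adjusted p of at most 2.87e-05, 3.84e-09, 5.23e-09 and 0.00651. With no replicate block, 4258 genes were enriched and 4333 depleted, with the same 3 and 1 members called. Library size only gave 1670 enriched and 9333 depleted genes of 14029 tested, with a median log2 fold change of -1.07. It called 5 of the 8 members depleted, which beside that share is no result about the members. There the log2 fold change turned to -0.88 for orc-2 (adjusted p = 5.36e-07) and -0.75 for orc-5 (adjusted p = 2.26e-05), and orc-3 (-1.01) and cdc-6 (-1.06) were called as well. RLE size factors called orc-5 enriched at 0.27 (adjusted p = 0.00779, of a range up to 0.47). At least 10 counts in every library called 2 members depleted, with cdc-6 at -0.21. DESeq2 gave 4254 enriched and 3236 depleted genes. Leaving out 1 library at a time, without the block, gave 3814 to 4122 enriched and 3445 to 3850 depleted genes and the same numbers of members.

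IP enrichment of orc-1 was 6.11 with library size only and 7.04 with TMM factors, and with TMM factors that of orc-2 was 0.057 and that of orc-5 was 0.18. With library size only, orc-1 exceeded orc-2, orc-3, orc-4 and orc-5 by 6.98, 7.12, 4.76 and 6.86, and with TMM factors by 6.99, 7.12, 4.77 and 6.86. With 2 replicates, levels of TPM rest on gene lengths that differ between annotations, and no alternative replaces a mock IP.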

Other observations

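The position of orc-4 behind orc-1 prompted a look at other such pairs, chosen after these values were seen. There were 35 genes with a log2 fold change of at least 4 that had a tested gene on the same strand starting within 500 bases downstream. The 35 include orc-1 with orc-4, the pair that prompted the look. Of those downstream genes 20 (57.1%) were called enriched, with a median log2 fold change of 0.60, against 996 of 2336 (42.6%) and 0.16 behind genes under 4. Over all genes tested, 32.9% were called enriched, with a median of -0.14. The value of orc-4 was reached or passed in 6 of the 35 pairs, its own included. Counts of the downstream gene ranged from 0.00723% (sre-9 behind C17E7.4) to 133% of those of the upstream gene in IP replicate 1, with a median of 6.40%. No test was run on these pairs.

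The gene model length in the count table was at least 1.5 times the WBcel235 exons for 384 of 13598 tested coding genes (2.82%), orc-1 with a ratio of 1.64 among them.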
